A study of Mus musculus with 12 samples.

Results

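Granins and the enzymes that cut and trim prohormones were followed in ribosome-bound RNA of mouse spinal cord. The 10 genes were the granins Chga, Chgb, Scg2, Scg3, Scg5 and Vgf, the convertases Pcsk1 and Pcsk2, the inhibitor Pcsk1n and the carboxypeptidase Cpe. They were found by gene symbol, 10 of 40912 gene IDs in the count table, and all 10 were among the 15905 genes that passed the filter on low counts. The series was made to set the translated RNA of cholinergic neurons beside that of neurons in general.

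The libraries came from mice of 2 bacTRAP lines at postnatal day 21. A bacTRAP line carries a bacterial artificial chromosome with Rpl10a, a ribosomal protein, joined to EGFP, so that ribosomes of the cells using it can be pulled down on the tag with the RNA they hold. In the line Tg(Chat-EGFP/Rpl10a)DW167Htz the tag was driven by sequences of Chat, the enzyme that makes acetylcholine. In the line Tg(Snap25-EGFP/Rpl10a)JD362Jdd it was driven by sequences of Snap25, a release protein of neurons in general. Every group carried a tagged Rpl10a, and no mice without a transgene were analysed here. The groups were TRAP_Chat (pulled-down RNA of the Chat line), PreIP_Chat (RNA of the same line before pulldown, the input), TRAP_Snap25 and PreIP_Snap25, with 3 libraries each. The cells sampled were those in which each transgene is active, and the labels do not say whether libraries came from separate animals or from pooled animals. P-values therefore measure only the spread between these libraries, which may be technical.

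Neurons and endocrine cells store peptides in dense-core vesicles. Granins are acidic proteins that gather in the trans-Golgi network and help to form and fill these vesicles, and several are themselves precursors of peptides. Prohormones packed with them are cut at basic residues by the convertases Pcsk1 and Pcsk2, and Cpe then removes the basic residues left at the cut end. Pcsk1n encodes proSAAS, an inhibitor of the Pcsk1 enzyme, and Scg5 encodes a chaperone that the Pcsk2 enzyme needs to become active.

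The stretches upstream of 6 of these genes are shown because 4 of the genes (Scg5, Scg2, Pcsk1n and Pcsk2) passed the test together in the Snap25 pulldown, and because 3 (Scg2, Chgb and Pcsk1) hold the full cAMP response element TGACGTCA, the site bound by CREB proteins. The sequences are from RefSeq, build GRCm38.p6, 250 bases up to the transcription start, 5′ to 3′ on the strand of the gene. Capitals mark matches to TGACG, the first part of that element, on either strand (CGTCA is a match on the opposite strand), and the full element where it occurs. The locations were chr2:113829092-113829341 on the minus strand for Scg5, chr1:79440027-79440276 on the minus strand for Scg2, chrX:7919572-7919821 on the plus strand for Pcsk1n, chr2:143545883-143546132 on the plus strand for Pcsk2, chr2:132781392-132781641 on the plus strand for Chgb and chr13:75089607-75089856 on the plus strand for Pcsk1.
Scg5: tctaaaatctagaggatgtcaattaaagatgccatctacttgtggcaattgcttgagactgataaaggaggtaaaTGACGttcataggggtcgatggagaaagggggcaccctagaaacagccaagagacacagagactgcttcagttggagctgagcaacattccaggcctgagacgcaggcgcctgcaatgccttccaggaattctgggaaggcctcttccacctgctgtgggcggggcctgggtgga
Scg2: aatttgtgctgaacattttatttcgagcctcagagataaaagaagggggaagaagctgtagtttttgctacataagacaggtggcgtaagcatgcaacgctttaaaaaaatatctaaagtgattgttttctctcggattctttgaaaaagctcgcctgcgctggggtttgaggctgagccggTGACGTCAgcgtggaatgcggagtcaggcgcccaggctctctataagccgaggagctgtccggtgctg
Pcsk1n: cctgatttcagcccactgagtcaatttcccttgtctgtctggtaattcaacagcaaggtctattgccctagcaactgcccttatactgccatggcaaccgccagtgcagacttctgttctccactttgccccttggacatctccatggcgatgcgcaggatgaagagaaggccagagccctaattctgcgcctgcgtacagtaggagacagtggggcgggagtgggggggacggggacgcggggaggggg
Pcsk2: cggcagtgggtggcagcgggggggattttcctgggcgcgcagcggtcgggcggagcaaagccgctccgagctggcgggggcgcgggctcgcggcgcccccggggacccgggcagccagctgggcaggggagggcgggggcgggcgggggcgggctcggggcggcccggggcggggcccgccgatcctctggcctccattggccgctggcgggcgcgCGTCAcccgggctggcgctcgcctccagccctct
Chgb: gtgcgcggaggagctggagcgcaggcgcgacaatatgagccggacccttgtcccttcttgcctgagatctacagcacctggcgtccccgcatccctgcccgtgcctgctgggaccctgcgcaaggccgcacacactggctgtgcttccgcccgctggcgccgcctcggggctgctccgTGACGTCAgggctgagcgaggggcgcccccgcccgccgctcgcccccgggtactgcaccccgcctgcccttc
Pcsk1: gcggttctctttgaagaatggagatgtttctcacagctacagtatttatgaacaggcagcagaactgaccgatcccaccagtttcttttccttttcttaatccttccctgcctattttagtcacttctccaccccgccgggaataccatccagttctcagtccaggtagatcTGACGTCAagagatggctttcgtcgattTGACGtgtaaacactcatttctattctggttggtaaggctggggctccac

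RefSeq promoters were matched for 8 of the 10 genes, all but Vgf and Cpe, and were searched on both strands from 250 bases before to 50 bases after the start. The full element lay 68 bases before the start of Scg2, 72 before that of Chgb and 78 before that of Pcsk1. It was thus in 3 of 8 promoters, against 1.79% (588) of 32851 mouse promoters of the same 300 bases. The short element, which the full one contains once on each strand, was in 7 of 8 promoters, against 20.8% (6837) of all promoters. Scg5 had it 175 bases before the start and again 19 and 40 bases after it, beyond the stretch printed, and Pcsk2 had it 34 bases before the start. Chga and Scg3, not printed, had 1 short match each at 44 and 30 bases before the start. In the Pcsk1n window these letters were not found. The full element was present both in a gene that passed the test (Scg2) and in genes that did not (Chgb, Pcsk1). A match is a description of the sequence and no measure of binding.

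Total counts ran from 10149346 to 20521699 per library, and the lowest count of any of the 10 genes was 40 (Pcsk1 in TRAP_Chat replicate 2). Levels are given as CPM, counts scaled to a common library size with TMM factors for composition. Chat itself had 106, 185 and 187 CPM in TRAP_Chat, against 30.2, 20.3 and 16.1 CPM in PreIP_Chat, and rose 7.18-fold (edgeR adjusted p = 1.61e-05). Snap25 had 16530, 14980 and 15570 CPM in TRAP_Snap25, against 9066, 10580 and 8807 CPM in PreIP_Snap25, a 1.65-fold difference whose adjusted p in edgeR was 0.0544. The marker genes of oligodendrocytes fell in both pulldowns (12 of 12 each), those of oligodendrocyte precursors likewise (8 of 8 each), those of astrocytes in 11 of 12 (Chat, with 1 higher) and 10 of 12 (Snap25), and those of microglia in 8 of 10 and 9 of 10. All 13 cholinergic markers rose in the Chat pulldown and 6 of 13 in the Snap25 pulldown. Of 14 markers of neurons in general, 4 rose and 2 fell in the Chat pulldown and 3 rose and 2 fell in the Snap25 pulldown. For these lists, the shares over all tested genes were 12.6% higher and 14.3% lower in the Chat pulldown. In the Snap25 pulldown they were 9.69% higher and 12.7% lower, so the 2 general markers that fell were near the share in each. Endocrine cells also use granins, but only 2 of 10 endocrine markers passed the filter, and the list summed to between 3.97 and 19.2 CPM in every library, with Pnmt at 0 in all 12.

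The 10 genes together summed to 1422, 1415 and 1462 CPM in TRAP_Chat, against 1527, 1291 and 1316 CPM in PreIP_Chat. They summed to 1953, 2354 and 2735 CPM in TRAP_Snap25, against 1439, 1352 and 1683 CPM in PreIP_Snap25. The sum was thus above every other group in the 3 TRAP_Snap25 libraries and between 1291 and 1683 CPM in the rest, as the plot of levels by library also shows gene by gene. As a share of all counts, without TMM factors, the 10 genes made up 0.160, 0.140 and 0.170% in TRAP_Chat. In PreIP_Chat they made up 0.129, 0.114 and 0.139%, without overlap. The shares were 0.238, 0.291 and 0.265% in TRAP_Snap25, against 0.129, 0.116 and 0.146% in PreIP_Snap25. Whether the sum rose in the Chat line thus depended on the scaling.

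**Figure D1:**
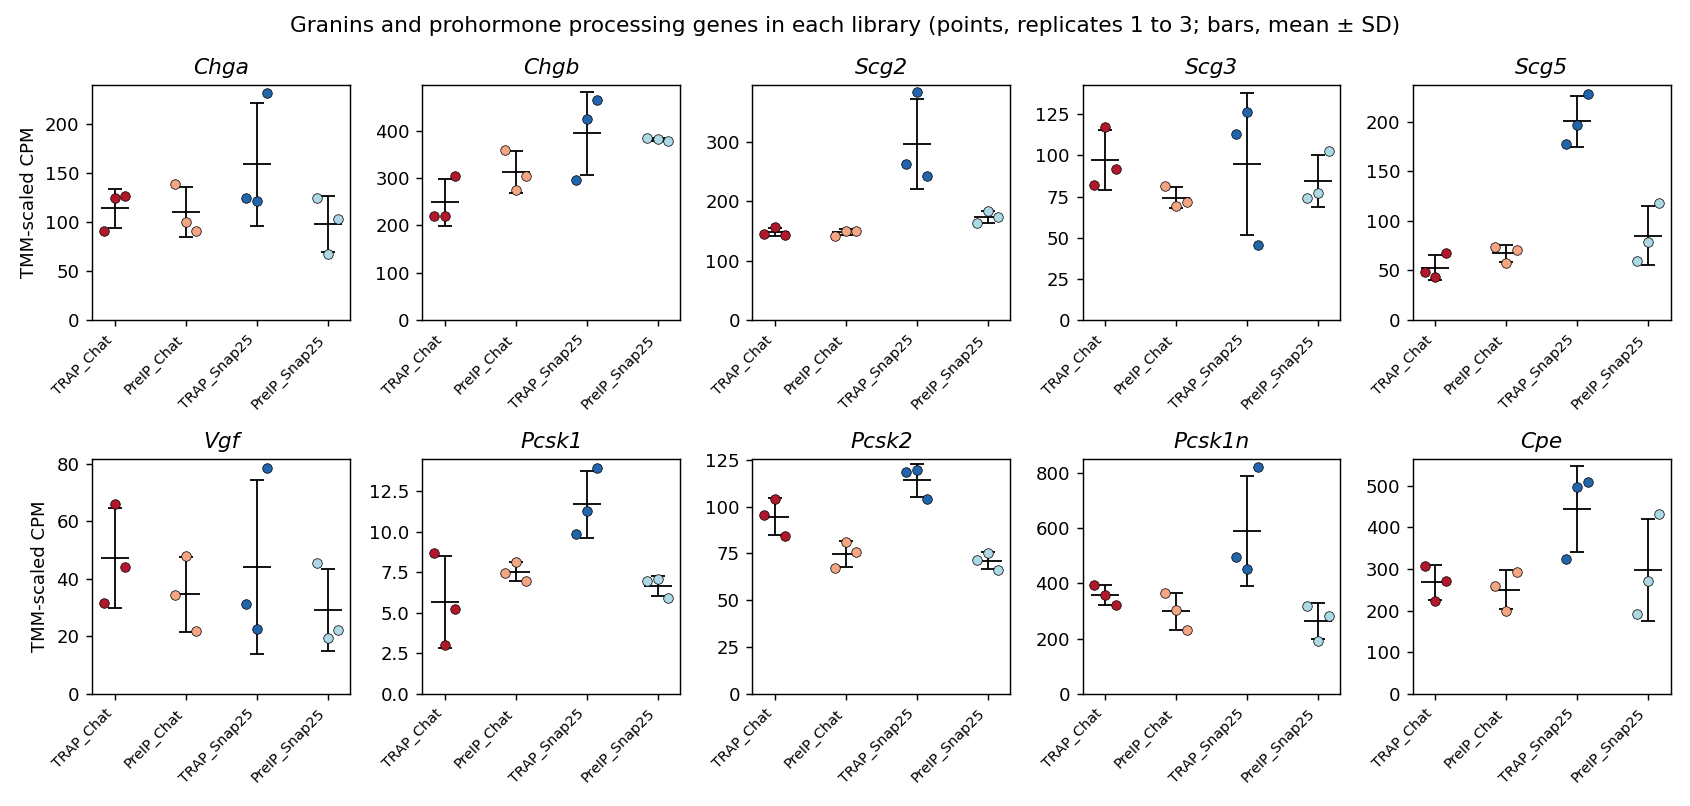
TMM-scaled CPM (linear axes from 0) of the 10 genes in each library of the 4 groups, with points for replicates 1 to 3 and bars for the mean ± SD. Scg5 sat between 177 and 228 CPM in TRAP_Snap25 and at 118 CPM or less in every other library. TRAP_Snap25 replicate 3 was the highest of all libraries for Chga, Chgb, Scg5, Vgf, Pcsk1, Pcsk1n and Cpe, and the lowest for Scg3.

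In the Snap25 pulldown, Scg5, Pcsk1n, Scg2 and Pcsk2 rose over the input by between 1.60-fold and 2.35-fold. These 4 of 10 genes passed the test (edgeR quasi-likelihood, adjusted p under 0.05 over all 15905 genes), where 9.69% of all genes were called higher. None of the 10 was called lower, where 12.7% of all genes were. All 10 log2 fold changes were above 0, with a median of 0.69 against -0.0042 over all tested genes. In bulk samples such as these, the share of a library that came from a cell type and the RNA level per cell cannot be told apart.

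Scg5, the chaperone of the Pcsk2 enzyme, had 177, 196 and 228 CPM in TRAP_Snap25, against 59.1, 78.7 and 118 CPM in PreIP_Snap25. Every pulldown library was above every input library. It averaged 200 ± 25.5 CPM in TRAP_Snap25 and 85.2 ± 29.9 CPM in PreIP_Snap25 (SD, n = 3 each), and rose 2.35-fold (edgeR adjusted p = 0.00429; log2 fold change 1.234 with an SE of 0.27).

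Pcsk2, the convertase that Scg5 serves, had 118, 120 and 104 CPM in TRAP_Snap25, against 71.5, 75.4 and 66.2 CPM in PreIP_Snap25. The groups did not overlap, and both had a small spread. The rise was 1.60-fold (edgeR adjusted p = 0.0219; log2 fold change 0.68 with an SE of 0.20), but it missed the threshold when any 1 library of this pair of groups other than TRAP_Snap25 replicate 3 was left out, with adjusted p between 0.0541 and 0.0702. It also missed it without a filter on low counts (0.0942) and in a fit of only the groups compared (0.0721). Pcsk2 shares 260 exon bases with the antisense gene Pcsk2os1, which had at most 249 counts in a library, and 99 with Pcsk2os2. The strand setting of the counting is not given in the sources used here, so reads over these bases are of uncertain origin.

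Pcsk1n, the inhibitor of the other convertase, had 495, 453 and 819 CPM in TRAP_Snap25, against 317, 191 and 281 CPM in PreIP_Snap25. All 3 pulldown libraries were above the inputs, and replicate 3 was far above the other two. It averaged 589 ± 200 CPM in TRAP_Snap25 and 263 ± 64.7 CPM in PreIP_Snap25 (SD, n = 3 each), a 2.24-fold rise (edgeR adjusted p = 0.00724; log2 fold change 1.16 with an SE of 0.28). Without TRAP_Snap25 replicate 3 the log2 fold change was 0.84 (adjusted p = 0.0235). Pcsk1n shares 135 exon bases with Eras on the opposite strand, which had 0 counts in every library.

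Pcsk1 itself was the lowest of the 10 genes, with 9.84, 11.3 and 13.9 CPM in TRAP_Snap25, against 6.93, 7.06 and 5.93 CPM in PreIP_Snap25. The groups did not overlap, yet the difference did not pass the test (log2 fold change 0.81, 95% interval 0.01 to 1.62, edgeR adjusted p = 0.138).

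Scg2, the precursor of secretoneurin, had 263, 384 and 242 CPM in TRAP_Snap25, against 164, 184 and 174 CPM in PreIP_Snap25. The pulldown libraries were all higher, with replicate 2 the highest. It rose 1.70-fold (edgeR adjusted p = 0.0174; log2 fold change 0.77 with an SE of 0.21). The call was lost without TRAP_Snap25 replicate 2 (log2 fold change 0.53, adjusted p = 0.107) and without PreIP_Snap25 replicate 1 (adjusted p = 0.0705), and in a fit of only the groups compared (adjusted p = 0.0683).

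The remaining granins did not pass the test. Chga, the founding chromogranin, had 124, 121 and 231 CPM in TRAP_Snap25, against 124, 66.9 and 103 CPM in PreIP_Snap25 (log2 fold change 0.69, edgeR adjusted p = 0.105), and without TRAP_Snap25 replicate 3 its log2 fold change was 0.31. Chgb, a second chromogranin, had 296, 424 and 464 CPM in TRAP_Snap25, against 384, 382 and 378 CPM in PreIP_Snap25, so that the inputs lay within the spread of the pulldown. Scg3, which binds Chga and the vesicle membrane, had 113, 126 and 45.6 CPM in TRAP_Snap25, against 74.0, 77.2 and 103 CPM in PreIP_Snap25, with the third pulldown library below all inputs.

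Vgf, a granin induced by nerve growth factor, had 31.3, 22.6 and 78.6 CPM in TRAP_Snap25, against 45.6, 19.6 and 22.3 CPM in PreIP_Snap25. Its log2 fold change of 0.59 (edgeR adjusted p = 0.367) was -0.12 without TRAP_Snap25 replicate 3. Cpe had 325, 497 and 509 CPM in TRAP_Snap25, against 193, 270 and 433 CPM in PreIP_Snap25, and its log2 fold change of 0.57 missed the threshold (edgeR adjusted p = 0.169). It passed only without PreIP_Snap25 replicate 3, its highest input (log2 fold change 0.93, adjusted p = 0.0352). Libraries of the Snap25 pulldown and its input did not overlap for 5 of the 10 genes, all higher in the pulldown, where 16.6% of all genes were higher without overlap.

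TRAP_Snap25 replicate 3 also stood apart in other genes. Oligodendrocyte markers summed to 2300, 1783 and 5385 CPM in the TRAP_Snap25 libraries, against 18510, 16680 and 22030 CPM in PreIP_Snap25. Cholinergic markers summed to 494, 509 and 822 CPM in TRAP_Snap25, against 310, 203 and 318 CPM in PreIP_Snap25. Their part in the levels of the granin and processing genes in that library was not tested. Without that library, the same 4 genes, Scg5, Pcsk1n, Scg2 and Pcsk2, passed the test, with edgeR adjusted p between 0.00652 and 0.0235.

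In the Chat pulldown, none of the 10 genes passed the test in either direction, where 12.6% of all genes were called higher and 14.3% lower. The count was also 0 at an unadjusted p under 0.05 in edgeR, which 6205 of all 15905 tested genes had. It was 0 as well with DESeq2 and with limma voom, which called 5029 and 4980 of all genes. The log2 fold changes ran between -0.41 (Pcsk1) and 0.45 (Vgf), 7 of 10 were above 0, and their median was 0.07 against -0.06 over all tested genes. This comparison shares no library with that of the Snap25 line.

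Pcsk2 had 95.7, 104 and 84.2 CPM in TRAP_Chat, against 67.0, 80.9 and 76.0 CPM in PreIP_Chat, and Scg3 had 82.1, 117 and 92.04 CPM in TRAP_Chat, against 81.5, 69.5 and 71.6 CPM in PreIP_Chat. These were the 2 genes of 10 whose libraries did not overlap, both higher in the pulldown, where 21.8% of all genes were. Neither passed the test (log2 fold change 0.34, edgeR adjusted p = 0.215 for Pcsk2, and 0.39, adjusted p = 0.363 for Scg3).

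Scg2 had 145, 157 and 144 CPM in TRAP_Chat, against 142, 151 and 150 CPM in PreIP_Chat. All 6 libraries thus lay between 142 and 157 CPM, and the 95% interval of the log2 fold change was -0.44 to 0.46. Scg5 had 48.3, 43.0 and 67.8 CPM in TRAP_Chat, against 73.8, 57.8 and 70.2 CPM in PreIP_Chat. The groups overlapped, and the log2 fold change was -0.34 (95% interval -0.90 to 0.21, edgeR adjusted p = 0.358).

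Pcsk1n had 392, 357 and 322 CPM in TRAP_Chat, against 364, 302 and 230 CPM in PreIP_Chat (log2 fold change 0.26, 95% interval -0.32 to 0.83). Cpe had 308, 223 and 272 CPM in TRAP_Chat, against 258, 200 and 294 CPM in PreIP_Chat (log2 fold change 0.10, 95% interval -0.51 to 0.71). Pcsk1 had 8.65, 3.02 and 5.26 CPM in TRAP_Chat, against 7.45, 8.14 and 6.98 CPM in PreIP_Chat. The 3 pulldown libraries of Pcsk1 spread on both sides of the inputs, over counts of 140, 40 and 101.

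Chga had 91.0, 124 and 126 CPM in TRAP_Chat, against 139, 100 and 90.4 CPM in PreIP_Chat. Chgb had 220, 221 and 305 CPM in TRAP_Chat, against 360, 274 and 304 CPM in PreIP_Chat. Vgf had 31.5, 66.0 and 44.2 CPM in TRAP_Chat, against 34.3, 47.9 and 21.8 CPM in PreIP_Chat. All 3 genes overlapped between the groups. The 95% interval of the log2 fold change was -0.57 to 0.68 for Chga, -0.82 to 0.16 for Chgb and -0.49 to 1.38 for Vgf. Changes within these intervals are not excluded.

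**Figure D2:**
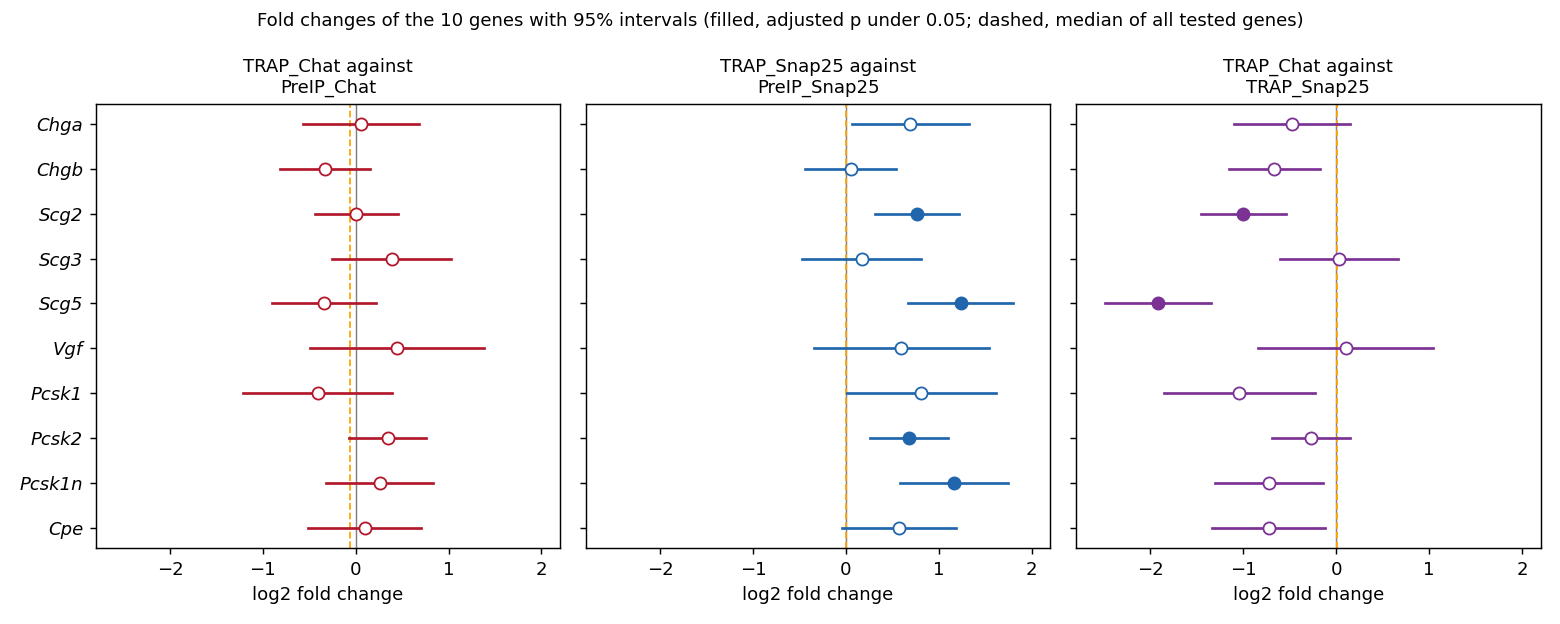
Log2 fold changes of the 10 genes in 3 comparisons with 95% intervals from the edgeR fit, where filled points had an adjusted p under 0.05 and dashed lines mark the median of all tested genes. All 10 points lay above 0 in TRAP_Snap25 against PreIP_Snap25, 4 of them filled, and Scg5 and Scg2 were the filled points, both below 0, in TRAP_Chat against TRAP_Snap25.

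Between the pulldowns, Scg5 was 3.78-fold lower and Scg2 2.0-fold lower in TRAP_Chat than in TRAP_Snap25. These 2 of 10 genes passed the test, where 2.77% of all genes were called lower, and none was called higher, where 3.97% of all genes were. The log2 fold change was below 0 for 8 of 10 genes, with a median of -0.69 against 0.01 over all tested genes. This comparison uses the same TRAP_Snap25 libraries as the one with the Snap25 input.

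Scg5 averaged 53.0 ± 13.1 CPM in TRAP_Chat and 200 ± 25.5 CPM in TRAP_Snap25 (SD, n = 3 each). Its highest TRAP_Chat library, at 67.8 CPM, was far below its lowest TRAP_Snap25 library, at 177 CPM. The log2 fold change was -1.92 with an SE of 0.27 (edgeR adjusted p = 0.000382). Scg2 averaged 148 ± 7.13 CPM in TRAP_Chat and 296 ± 76.3 CPM in TRAP_Snap25 (SD, n = 3 each), with a log2 fold change of -0.998 and an SE of 0.21 (edgeR adjusted p = 0.0101). The Scg2 groups did not overlap, but without TRAP_Snap25 replicate 2 its adjusted p was 0.0550 in edgeR, and 0.0595 in a fit of only the groups compared.

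Libraries of the pulldowns did not overlap for 5 of 10 genes, all lower in TRAP_Chat, where 9.47% of all genes were lower without overlap. Besides Scg5 and Scg2 these were Pcsk1 (log2 fold change -1.04, edgeR adjusted p = 0.119), Pcsk1n (-0.72, adjusted p = 0.129) and Cpe (-0.73, adjusted p = 0.149), none of which passed. Pcsk1 passed only without TRAP_Chat replicate 1 (log2 fold change -1.48, adjusted p = 0.0396). Chgb averaged 249 ± 49.1 CPM in TRAP_Chat and 395 ± 87.6 CPM in TRAP_Snap25 (SD, n = 3 each), a log2 fold change of -0.67 (edgeR adjusted p = 0.0978). Chga (-0.48), Pcsk2 (-0.27), Scg3 (0.03) and Vgf (0.10) had log2 fold changes whose 95% intervals included 0.

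Markers of other neurons moved with this comparison. Inhibitory markers summed to between 149 and 308 CPM in TRAP_Chat, against 978 to 1314 CPM in TRAP_Snap25, and 8 of 10 were called lower. Glutamatergic markers summed to between 57.8 and 67.0 CPM in TRAP_Chat, against 179 to 257 CPM in TRAP_Snap25, and 4 of 8 were called lower. All 13 cholinergic markers were called higher, with sums of 2692 to 4332 CPM in TRAP_Chat, against 494 to 822 CPM in TRAP_Snap25. The shares over all genes in this comparison were 3.97% higher and 2.77% lower. Oligodendrocyte markers summed to 6060, 2245 and 3242 CPM in TRAP_Chat, against 2300, 1783 and 5385 CPM in TRAP_Snap25. The part of these cell types in the levels of Scg5 and Scg2 was not tested.

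Whether the step from input to pulldown differed by line was tested directly, as an interaction. No gene of the 10 passed that test, where 0.604% of all genes were called higher and 0.44% lower. An unadjusted p under 0.05 in edgeR was found for 4 of the 10, and for 1833 of all 15905 tested genes. Scg5 came nearest, with a log2 difference of -1.58 and an SE of 0.37 (edgeR adjusted p = 0.0523), and it did pass with DESeq2 (adjusted p = 0.00702) and with limma voom (adjusted p = 0.0292), and in 7 of 18 alternatives in all. Scg2 (-0.76, edgeR adjusted p = 0.315), Pcsk1n (-0.91, adjusted p = 0.363) and Pcsk1 (-1.22, adjusted p = 0.382) were the others with an unadjusted p under 0.05. The calls of Scg2, Pcsk1n and Pcsk2 in the Snap25 line and their lack in the Chat line are therefore not shown to differ. For Scg5 the answer depended on the fit, among others on whether the replicate number entered as a block.

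The inputs of the lines served as a background for this. Between PreIP_Chat and PreIP_Snap25, none of the 10 genes was called, and neither was any other gene (0% higher and 0% lower) with edgeR, although 133 genes had an unadjusted p under 0.05 and DESeq2 called 1. Chgb and Scg2 were lower without overlap in PreIP_Chat, 2 of 10 genes, where 3.85% of all genes were. Scg5 averaged 67.3 ± 8.38 CPM in PreIP_Chat and 85.2 ± 29.9 CPM in PreIP_Snap25 (SD, n = 3 each), with overlapping libraries.

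To set the genes against each other, CPM were divided by the length of all exons of a gene in kilobases (GENCODE M21). Pcsk1n then had the highest level of the 10 in both pulldowns, with 163 ± 15.99 CPM per kilobase in TRAP_Chat and 269 ± 91.3 in TRAP_Snap25 (SD, n = 3 each). Cpe and Chgb followed in both pulldowns, and the ranges of Cpe and Chgb over 3 libraries overlapped in each. In TRAP_Chat, Scg2 (59.0 ± 2.83 CPM per kilobase) came next, then Chga (41.3 ± 7.15), Scg3 (35.5 ± 6.65) and Scg5 (33.8 ± 8.32), and these last 3 overlapped. In TRAP_Snap25, Scg5 had 128 ± 16.2 CPM per kilobase, and its range overlapped those of Cpe, Chgb and Scg2 and lay above those of Chga and Scg3. Vgf and Pcsk2 were neighbours that overlapped in all 4 groups.

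Pcsk1 was lowest in every group, between 1.01 ± 0.51 CPM per kilobase in TRAP_Chat and 2.09 ± 0.37 in TRAP_Snap25 (SD, n = 3 each), and its range overlapped no other gene. In PreIP_Chat the order was led by Pcsk1n (136 ± 30.6 CPM per kilobase) and in PreIP_Snap25 by Chgb (139 ± 1.06), each overlapping the next gene. With the length of the longest transcript in place of all exons, ranks moved for 6 of 10 genes in TRAP_Chat, 6 in PreIP_Chat, 4 in TRAP_Snap25 and 7 in PreIP_Snap25, while Pcsk1n stayed first in both pulldowns and Pcsk1 last in every group. In TRAP_Snap25 the range of Pcsk1n then overlapped that of Cpe, which it did not with all exons.

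**Figure D3:**
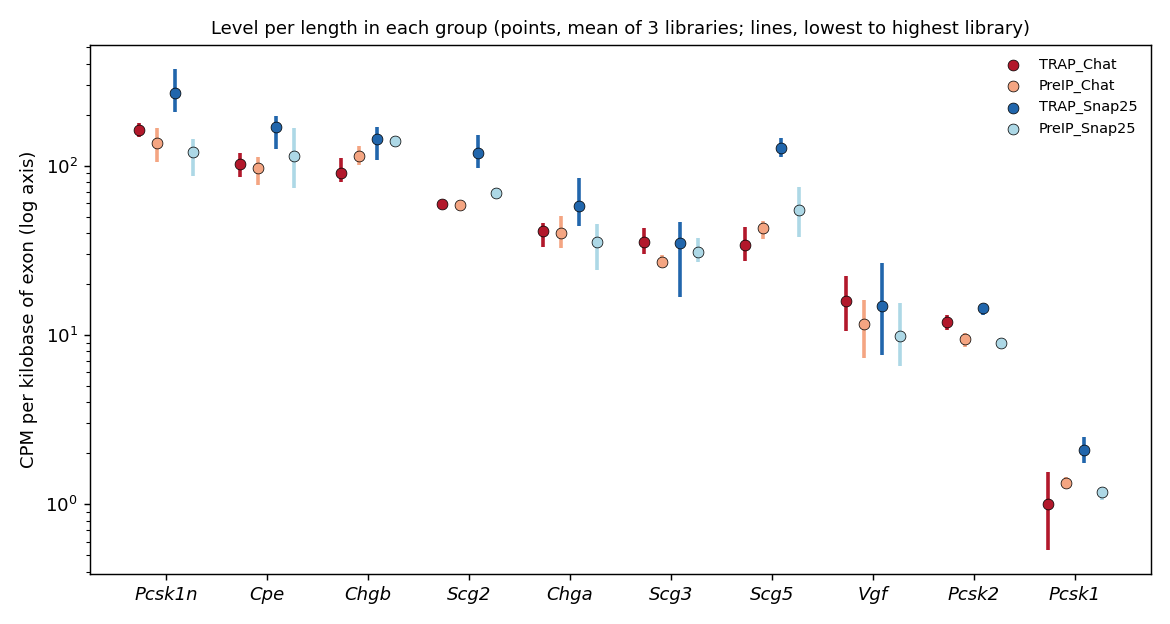
Mean CPM per kilobase of exon of each gene in the 4 groups on a log axis, with lines from the lowest to the highest of 3 libraries and genes in the order of their level in TRAP_Chat. Scg5 in TRAP_Snap25, at 128 CPM per kilobase, stood clear of its own level in the other groups, and Pcsk1 was lowest throughout.

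The enzyme Pcsk2 and its chaperone Scg5 were set against each other within each library, as reads per exon base of Scg5 over those of Pcsk2. This ratio and 3 others were chosen after the values of the genes had been seen. It was 2.54, 2.08 and 4.06 in TRAP_Chat, against 7.55, 8.26 and 11.1 in TRAP_Snap25, and the pulldowns did not overlap. It was 5.55, 3.60 and 4.66 in PreIP_Chat, against 4.17, 5.26 and 8.97 in PreIP_Snap25, which overlapped. The log2 difference between the pulldowns was -1.67, with a two-sided exact permutation p of 0.1, the smallest that 3 against 3 libraries allow, and 0.4 after Benjamini-Hochberg adjustment over the 16 differences computed for 4 ratios.

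The ratio of Pcsk2 to Pcsk1 was 7.84, 24.4 and 11.3 in TRAP_Chat, against 6.38, 7.05 and 7.71 in PreIP_Chat, without overlap (exact permutation p = 0.1, adjusted 0.4). The highest value was that of TRAP_Chat replicate 2, whose Pcsk1 count was 40. In the Snap25 line it was 8.51, 7.52 and 5.28 in TRAP_Snap25, against 7.32, 7.57 and 7.91 in PreIP_Snap25. The ratio of Chgb to Chga was 2.43, 1.79 and 2.44 in TRAP_Chat, against 2.61, 2.76 and 3.39 in PreIP_Chat, also without overlap (exact permutation p = 0.1, adjusted 0.4). For Pcsk1n to Pcsk1 the ratio ran between 69.1 and 302 over the 12 libraries, and the groups of each comparison overlapped.

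**Figure D4:**
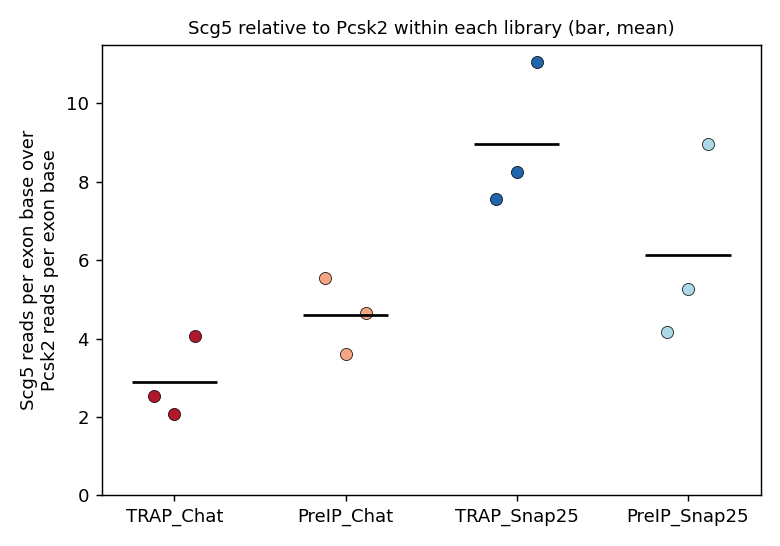
Reads per exon base of Scg5 over reads per exon base of Pcsk2 in each library (points) with the group mean (bar), on a linear axis from 0. The 3 TRAP_Chat libraries lay between 2.08 and 4.06 and the 3 TRAP_Snap25 libraries between 7.55 and 11.1.

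The genes whose levels ran most like those of the 10 were sought among tested protein-coding genes that averaged 5 CPM or more. Genes with only a predicted or clone name were left out. Likeness was measured by the root mean square difference of centred log2 CPM over the 12 libraries. For Scg5 these were Nsg2, a neuronal trafficking protein (0.25), and Mrap2, an accessory protein of melanocortin receptors (0.26). For Scg2 they were Pam, the enzyme that amidates peptides (0.17), and Ccdc32 (0.17). For Pcsk1n they were Stmn3, a neuronal stathmin (0.13), and Lrrc24 (0.18), and for Chga Clptm1 (0.12) and Clstn1, a calsyntenin (0.13). Among the 10 themselves the most alike pair was Chga and Pcsk1n, at 0.26, followed by Scg2 and Pcsk2, at 0.31.

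Of 17 other enzymes that process peptides and proteins, 15 were tested. In the Snap25 pulldown 1 of the 15 rose and 3 fell, where 9.69% of all genes were called higher and 12.7% lower, with a list median log2 fold change of -0.41 against -0.0042 over all genes. The one that rose was Pam, at 75.5 ± 18.4 CPM in TRAP_Snap25 and 43.6 ± 3.31 CPM in PreIP_Snap25 (SD, n = 3 each, log2 fold change 0.79, edgeR adjusted p = 0.0203). Those that fell were the carboxypeptidases Cpm (-1.68) and Cpd (-1.59) and the endothelin-converting enzyme Ece1 (-0.81, edgeR adjusted p = 0.0499). In the Chat pulldown 1 of the 15 rose and 2 fell, near the background of 12.6% higher and 14.3% lower. The one that rose was Ece2, a relative of Ece1 (log2 fold change 0.97), and the convertase Pcsk6 (-1.43) and Cpd (-1.28) fell, with a list median of -0.27 against -0.06. Between the pulldowns Pam alone passed, where 2.77% of all genes were called lower, at 39.5 ± 5.50 CPM in TRAP_Chat and 75.5 ± 18.4 CPM in TRAP_Snap25 (SD, n = 3 each, log2 fold change -0.93, edgeR adjusted p = 0.0200).

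Of 27 genes for making, docking and releasing dense-core vesicles, 25 were tested. In the Snap25 pulldown 5 of the 25 rose and 2 fell (median log2 fold change 0.16), where 9.69% of all genes were called higher and 12.7% lower. One that rose was Resp18, a granule protein, at 227 ± 28.7 CPM in TRAP_Snap25 and 76.2 ± 33.6 CPM in PreIP_Snap25 (SD, n = 3 each, 2.98-fold, edgeR adjusted p = 0.00141). Rab3a, a GTPase of secretory vesicles (log2 fold change 1.04), and Ptprn, a transmembrane protein of the granule (0.77, edgeR adjusted p = 0.04998), rose as well, and Sytl5 (-1.93) and Arfip1 (-1.27) fell. In the Chat pulldown 3 rose and 3 fell (median -0.16), which is near the 12.6% of all genes called higher and 14.3% called lower there. Those that rose were Doc2b (1.26), a calcium sensor, Rab2a (0.97), a GTPase needed for dense-core vesicles in worms, and Resp18 (0.81). Baiap3 (-1.95), Syt7 (-1.71), a slow calcium sensor of release, and Arfip1 (-1.03) fell. Between the pulldowns Syt7 (-1.16) and Snap25 (-0.94), whose sequences drive the transgene of one line, were lower in TRAP_Chat, 2 of the 25 where 2.77% of all genes were, with a list median of -0.04, and no gene of the list passed in the difference between the lines. Snap25 was lower in the inputs too, at 6096, 5903 and 6902 CPM in PreIP_Chat, against 9066, 10580 and 8807 CPM in PreIP_Snap25. That input difference (log2 fold change -0.59, edgeR unadjusted p = 0.0367) was not called after adjustment.

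The peptide precursors, among which are substrates of these enzymes, spread more widely. Of 41 listed, 31 were tested, and 9 rose and 6 fell in the Chat pulldown, while 10 rose and 1 fell in the Snap25 pulldown. Of all genes, 12.6% were called higher and 14.3% lower in the Chat pulldown, and 9.69% higher and 12.7% lower in the Snap25 pulldown. The list medians were 0.46 and 0.79 on the log2 scale, against -0.06 and -0.0042 over all genes. Uts2, Calca and Calcb stand also among the cholinergic markers, and Npy among the inhibitory ones.

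Uts2, which encodes urotensin 2, averaged 126 ± 51.5 CPM in TRAP_Chat and 4.82 ± 1.71 CPM in PreIP_Chat (SD, n = 3 each). Cartpt, a precursor of CART peptides, averaged 217 ± 44.6 CPM in TRAP_Chat and 13.9 ± 1.78 CPM in PreIP_Chat. Both passed the test (log2 fold changes 4.70 and 3.97, edgeR adjusted p = 5.84e-06 and 3.41e-06). Ucn, which encodes urocortin, had 49, 31 and 10 counts in TRAP_Chat and 0 in every PreIP_Chat library. Its TRAP_Chat mean, 2.11 CPM without TMM scaling, was at least 12.6-fold above a floor of 3 counts per library (0.168 CPM). This bound is for the mean of the 3 libraries and not for each of them. Such floors cover counting error only, and with Ucn at that bound the list median stayed at 0.46. Npy, which encodes neuropeptide Y (log2 fold change -3.37), Nppc (-2.39), a natriuretic peptide, and Trh, with 0, 0 and 1 counts in TRAP_Chat against 16, 19 and 7 in PreIP_Chat, led the falls.

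In the Snap25 pulldown Uts2 (log2 fold change 2.24), Cartpt (1.75) and Cck (1.57), the cholecystokinin precursor, led the rises, and Apln (-2.54), the apelin precursor, was the one that fell. Between the pulldowns 6 of the 31 precursors were higher and 6 lower in TRAP_Chat (median -0.11). Among all genes, 3.97% were called higher and 2.77% lower there. Cartpt (2.57), Uts2 (2.50) and Uts2b (2.38), a relative of Uts2, led the higher ones. Npy (-4.36), Adm (-2.95), which encodes adrenomedullin, and Trh, with 10, 25 and 60 counts in TRAP_Snap25, led the lower ones. In the difference between the lines 6 precursors passed as higher and 1 as lower, where 0.604% and 0.44% of all genes did. None of the 10 granin and processing genes passed in that difference.

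**Figure D5:**
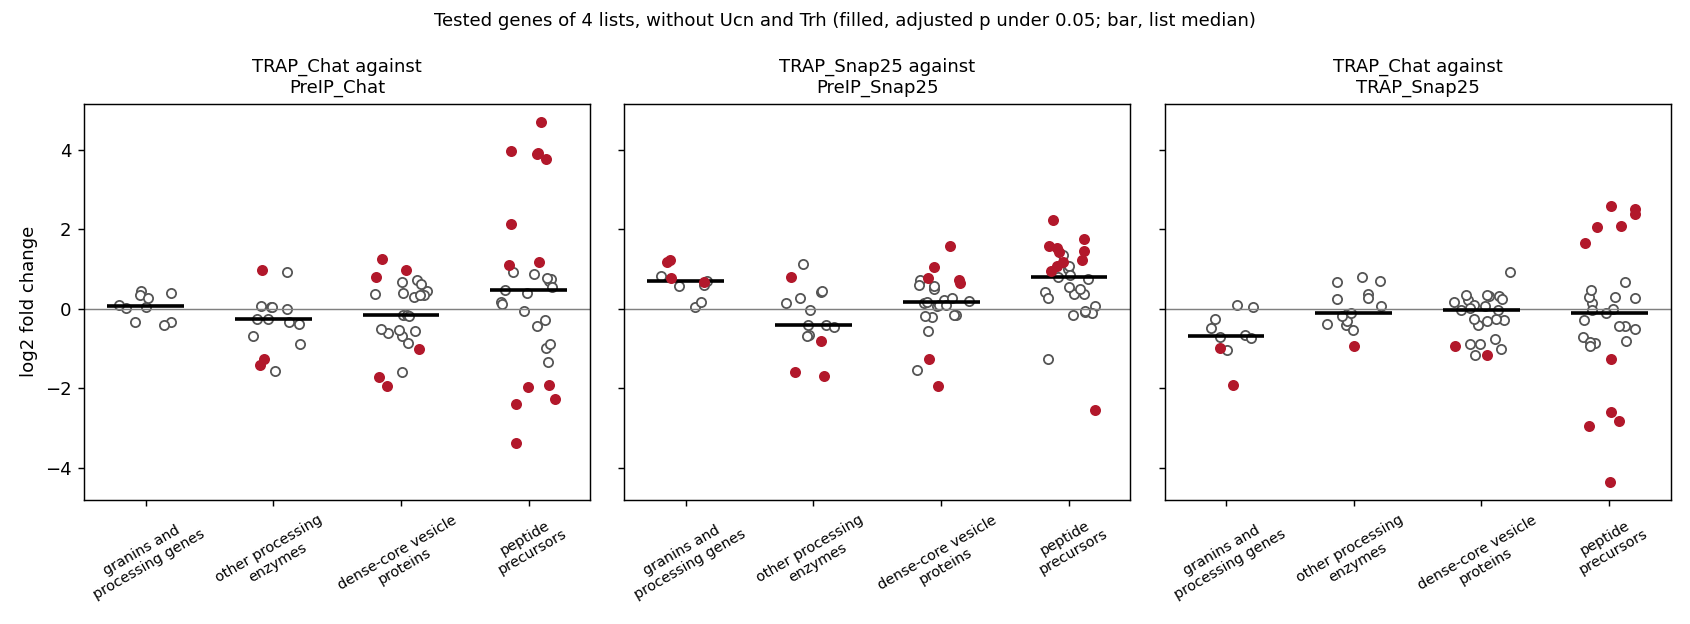
Log2 fold changes in 3 comparisons of the 10 granin and processing genes and of the tested genes of 3 other lists, with filled points at an edgeR adjusted p under 0.05 and bars at the list medians. Ucn and Trh, with groups at or near 0 counts, are left out as points but kept in the medians; the peptide precursors spread from below -4 to above 4, and the 10 genes stayed between -1.92 and 1.234.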

How the data were processed

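Spinal cord RNA of 12 libraries in 4 groups of 3, taken from the sample titles, was analysed. The authors deposited unnormalized counts of reads for each gene. The submitters' processing notes name STAR and HTSeq, and versions, build, annotation and strand were not given in the sources used here. Of 41736 lines, 824 exact repeats were dropped, which left 40912 gene IDs. The labels' protocols name an amplification step and no molecular identifiers, so reads were not treated as independent molecules.

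Counts were fitted in edgeR 4.0.16 (R 4.3.3) with filterByExpr, TMM scaling and glmQLFit on all 12 libraries with 1 mean per group, and glmQLFTest gave two-sided p-values, adjusted by Benjamini-Hochberg over 15905 genes with a threshold of 0.05. Centred log2 CPM used a prior count of 2. Alternatives were DESeq2 1.42.0, limma voom (limma 3.58.1), RLE scaling, no filter, a filter of 1 CPM in 3 libraries, only the groups compared, a replicate block and leaving out each library. The scripts were tested on simulated data.

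The members and lists were chosen with earlier results of these data known. Named were all members, Chat and Snap25, up to 3 genes per list, direction and comparison with the largest fold change past the threshold, and the 2 genes most like a member. Other genes named (Pnmt, Eras and the antisense genes of Pcsk2, Calca and Nts) were chosen after their values were seen. Exon lengths came from GENCODE M21 and promoters from RefSeq (GRCm38.p6). Exact permutation tests were run in scipy 1.17.1.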

Additional observations from a re-analysis of the deposited data

Results flagged for a closer look

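Of the 31 tested peptide precursors, 7 differed between the lines in how TRAP stood to PreIP, by the interaction test in edgeR, 6 of them with a higher and 1 with a lower difference, where 0.604% of all genes were called higher and 0.44% lower. The log2 difference, Chat line minus Snap25 line, was 2.69 for Uts2b (adjusted p = 0.0130), 2.46 for Uts2 (adjusted p = 0.0424), 2.37 for the calcitonin-family precursor Calcb (adjusted p = 0.0425), 2.31 for its relative Calca (adjusted p = 0.0185), 2.27 for the neurotensin precursor Nts (adjusted p = 0.0401), 2.22 for the CART peptide precursor Cartpt (adjusted p = 0.0211) and -4.45 for Npy (adjusted p = 0.00855). Npy averaged 0.895 ± 0.702 CPM in TRAP_Chat and 9.54 ± 1.65 CPM in PreIP_Chat, and 18.9 ± 9.89 CPM in TRAP_Snap25 and 8.96 ± 2.74 CPM in PreIP_Snap25 (SD, n = 3 each). Uts2b averaged 26.5 ± 2.47 CPM in TRAP_Chat and 1.75 ± 0.389 CPM in PreIP_Chat, and 5.09 ± 1.26 CPM in TRAP_Snap25 and 2.18 ± 0.554 CPM in PreIP_Snap25 (SD, n = 3 each).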

How the results depend on the processing

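The edgeR calls of Scg5 and Pcsk1n in the Snap25 pulldown and of Scg5 between the pulldowns held in 19 of 19 alternatives each, that of Scg2 in 16 of 19 and 17 of 19, and that of Pcsk2 in 12 of 19. With only the groups compared, 2 of the 10 genes were called higher in TRAP_Snap25 against PreIP_Snap25 (890 of all genes) and 1 lower in TRAP_Chat against TRAP_Snap25 (145 of all genes, and 237 higher). Leaving out 1 library gave between 2 and 4 of the 10 genes higher in TRAP_Snap25 against PreIP_Snap25, between 1 and 3 lower in TRAP_Chat against TRAP_Snap25, and between 0 and 1 lower when the lines' changes were compared. Scg5 passed in that difference in 7 of 18 alternatives, so that 1 of the 10 genes was lower with DESeq2, limma voom, no filter, the filter of 1 CPM and the replicate block, and without TRAP_Chat replicate 3 or PreIP_Snap25 replicate 3 (adjusted p over all alternatives between 0.00702 and 0.147). Of 940 refitted values of the 10 genes, 32 had the other sign, none of them called. The cause of these shifts was not tested.

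Over all genes, DESeq2 called 1026 higher and 746 lower in TRAP_Chat against TRAP_Snap25, 292 and 209 for the lines' difference and 1 higher between the inputs. Without a filter these were 1085 and 676, 269 and 184, and 6 and 1, and limma voom called 106 lower in the difference between the lines. Leaving out 1 library gave 1191 to 2376 genes higher in TRAP_Chat against PreIP_Chat, 675 to 1688 higher and 1298 to 2321 lower in TRAP_Snap25 against PreIP_Snap25, 355 to 961 higher and 266 to 574 lower in TRAP_Chat against TRAP_Snap25, and for the lines' difference 26 to 152 higher and 26 to 97 lower.

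In each line, the description of a TRAP library ends like that of the PreIP library with its number, and the labels do not say what this ending stands for. The numbers were not taken to pair the libraries, since no label says so and the correlations of same-numbered libraries were low. Deviations of same-numbered TRAP and PreIP libraries correlated at 0.06, 0.10 and 0.13 in the Chat line and at -0.04, 0.17 and 0.15 in the Snap25 line. With line and number as a replicate block, Scg5 had a log2 difference between the lines of -1.65 (edgeR adjusted p = 0.0182), and 118 genes were higher and 88 lower among all. For TRAP_Chat against TRAP_Snap25 and for the inputs the block was the number alone, although libraries of the same number end differently between the lines. No other call of the 10 genes changed with these blocks. In the Chat line, TRAP and PreIP libraries of unlike number correlated at -0.10 to -0.02, below every same-numbered pair. In the Snap25 line those of unlike number correlated at -0.30 to 0.17, and not every library correlated best with its own number. With 3 libraries a group, differences of the 10 genes smaller than their intervals were not detectable.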
